A study of Rattus norvegicus with 14 samples.

Results

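Integrin subunits were followed at the RNA level in PCCL3 cells, a rat thyroid follicular cell line that grows with thyrotropin. The members were 10 genes chosen by name, with earlier results of these data known, as were the gene lists below. The 10 were Itga1, Itga2, Itga3, Itga5, Itga6, Itga8, Itgav, Itgb1, Itgb4 and Itgb6. Of these, 7 had a row among the 16816 genes of the count table, and RNA levels of Itga2, Itga3 and Itgav were not analysed here. PPFP cells stably expressed a Myc-tagged human PAX8-PPARG fusion protein (PPFP), an oncoprotein of thyroid carcinoma, and EV cells carried the empty vector. Each cell line received vehicle or 1 μM pioglitazone, a PPARG agonist, for 16 hours before harvest, which gave 4 groups of 3 RNA-seq libraries from 3 independent experiments. Each arm was a single stable line, so the fusion protein and other differences between the lines cannot be told apart. A ChIP-seq and an input library were not used here.

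Integrins are cell surface receptors made of an α and a β subunit that link the extracellular matrix to the cytoskeleton and pass signals in both directions. The partner decides the ligand: α1β1 binds collagens and laminins, α5β1 binds fibronectin, α6β1 and α6β4 bind laminins, and α8β1 binds ligands with an RGD motif such as nephronectin. The β6 subunit pairs with αv, and αvβ6 activates latent TGFβ. Follicular cells of the thyroid rest on a basement membrane, and β4 is the subunit that anchors epithelial cells to it through hemidesmosomes.

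Between 23724703 and 35240176 reads per library were assigned to genes. All 10 listed thyrocyte markers, thyroglobulin among them, were above 3 counts in every group, and their summed level in a library was 10388 to 14698 CPM, the read count normalized to library size. The leukocyte marker Ptprc had at most 1 count in a library, and the endothelial marker Pecam1 at most 2. In PPFP versus EV cells without pioglitazone, the 1 tested leukocyte marker (Cd68, log2 fold change 0.86, adjusted p = 0.048) and the 1 tested endothelial marker (Vwf, 1.17, adjusted p = 0.038) were higher, both at about 1 CPM. With pioglitazone in both lines Cd68 was higher by 1.18 (adjusted p = 0.016) and Vwf gave 0.19 (adjusted p = 0.74), and the part of these markers in the results was not tested. Of 7 fibroblast markers, 4 or 5 were at 3 counts or fewer in every library of a group. Of the same list, Pdgfra had 517 to 938 counts in a library and was higher in PPFP than in EV cells with pioglitazone (log2 fold change 0.46, adjusted p = 0.014), Col1a1 had 23 to 96 counts, and their part in the results was not tested. Counts assigned to Pparg, which can include reads of the fusion transcript, without pioglitazone were 1.60 ± 0.35 CPM in the EV line and 54.1 ± 6.82 CPM in the PPFP line (SD, n = 3), higher in the line labelled as carrying it. Replicates 2 and 3 of PPFP cells with pioglitazone were closer to each other than any other pair, with a chi-square of 1.70 per degree of freedom against 17.8 to 113 for the other pairs of a group. That is still more than counting noise, so they were kept as separate libraries, and results that change when they are counted as 1 are named below.

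RefSeq promoters of 300 bases (build GRCr8, 250 bases before to 50 bases after the start of the gene) were matched by symbol for 8 of the 10 members, all but Itga6 and Itgb4. Those of Itga1 (chr2:48545234-48545533, minus strand) and Itga8 (chr17:80410584-80410883, minus strand) belong to the subunits with the widest gaps between the cell lines, and that of Itgb1 (chr19:73602027-73602326, plus strand) to a subunit with like levels in all groups. Capitals mark GGGCGG on either strand, the GC box, and each sequence runs 5′ to 3′ along the gene.
Itga1: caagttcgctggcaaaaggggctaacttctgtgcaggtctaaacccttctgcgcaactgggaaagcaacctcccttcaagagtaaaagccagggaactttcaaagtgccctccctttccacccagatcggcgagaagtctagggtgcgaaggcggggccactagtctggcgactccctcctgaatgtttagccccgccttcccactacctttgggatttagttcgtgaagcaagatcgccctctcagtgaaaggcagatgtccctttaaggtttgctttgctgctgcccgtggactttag
Itga8: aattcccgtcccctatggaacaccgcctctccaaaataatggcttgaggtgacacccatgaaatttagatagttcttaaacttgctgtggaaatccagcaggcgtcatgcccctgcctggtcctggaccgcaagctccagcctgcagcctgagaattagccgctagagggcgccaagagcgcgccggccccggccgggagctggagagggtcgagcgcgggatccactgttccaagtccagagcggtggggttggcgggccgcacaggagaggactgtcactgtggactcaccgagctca
Itgb1: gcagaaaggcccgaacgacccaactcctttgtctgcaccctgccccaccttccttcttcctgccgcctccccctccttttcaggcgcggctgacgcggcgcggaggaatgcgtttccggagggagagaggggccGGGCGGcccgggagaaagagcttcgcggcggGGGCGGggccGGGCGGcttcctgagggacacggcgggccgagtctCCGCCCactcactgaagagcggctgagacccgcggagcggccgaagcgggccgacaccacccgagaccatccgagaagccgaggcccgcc
The Itgb1 promoter held 4 GC boxes, with no overlap among them, and the Itga1 and Itga8 promoters held 0. Of the others, Itga5 held 2, Itga2 3, Itga3 2, Itgav 2 and Itgb6 0, so 5 of 8 members had a GC box. A GC box was found in 33.1% of the 33469 promoters of this length. The hexamer AGGTCA, the core element read by PPARG and other nuclear receptors, was searched on both strands and was found in 0 of the 8 member promoters and in 16.2% of all promoters. Its direct repeat with any 1 base between the copies, which contains the hexamer, occurred in 18 promoters (0.0538%), none of them a member's.

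The first comparison asked how PPFP cells differed from EV cells without pioglitazone. The α subunits Itga1, Itga5 and Itga8 and the β subunit Itgb4 were higher in PPFP cells, Itga6 was slightly lower, and Itgb1 and Itgb6 did not pass the test. Thus 5 of 7 members passed at an adjusted p under 0.05 (edgeR's quasi-likelihood test), 4 up and 1 down, when 45.2% of the 10264 genes tested passed, 22% up and 23.1% down. Itga1 and Itga8 rose by more than 2-fold, as did 7.27% of genes. The median log2 fold change of the 7 members was 0.77, beside 0.0016 for all genes. In bulk RNA, a change in every cell and a change in the share of cells that express a gene cannot be told apart.

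**Figure D1:**
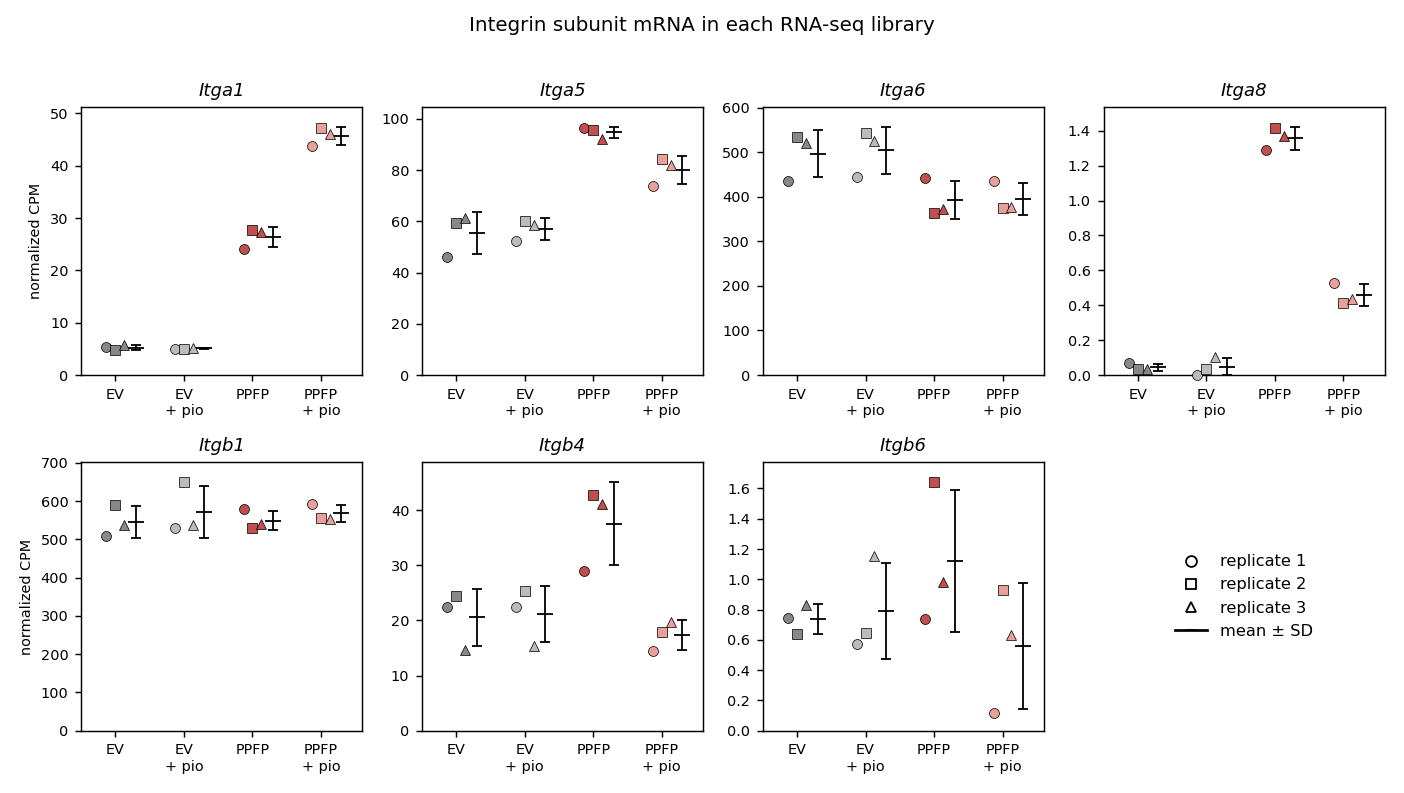
Normalized CPM (vertical axes, starting at 0) of the 7 integrin subunits in the 12 libraries, by group on the horizontal axes (EV and PPFP cells, without and with pioglitazone, written as pio). Symbols are replicates, and black bars are the mean ± SD of 3 libraries, drawn no lower than 0. Itga1 climbed from about 5 CPM in EV cells to 26.4 and 45.7 CPM in PPFP cells, while Itgb4 was highest in PPFP cells without pioglitazone.

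Itga1 encodes the α1 chain of the collagen and laminin receptor α1β1. Its level was 5.27, 4.76 and 5.76 CPM in the 3 libraries of EV cells without pioglitazone and 24.2, 27.7 and 27.4 CPM in those of PPFP cells. The groups were far apart, and the log2 fold change was 2.33 (SE 0.12), a 5.02-fold rise with an adjusted p of 1.2e-05 in edgeR's quasi-likelihood test. With pioglitazone the same comparison gave 5.04, 5.01 and 5.20 CPM in EV cells against 43.8, 47.3 and 46.1 CPM in PPFP cells. All PPFP libraries again lay above all EV libraries, by a log2 fold change of 3.18 (SE 0.09), or 9.09-fold (adjusted p = 1.5e-06).

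Itga8 encodes the α8 chain, which pairs with β1 and is known from mesenchymal cells and kidney development. It was at the detection floor in EV cells, with 2, 1 and 1 counts in the libraries without pioglitazone and 0, 1 and 3 counts in those with it. PPFP cells without pioglitazone had 35, 38 and 32 counts, or 1.29, 1.42 and 1.37 CPM. All 3 PPFP libraries were above all EV libraries, and the adjusted p was 6.5e-05. Scaled by library size and TMM factor, the summed counts gave a ratio of 30.4 (exact 95% interval 11.5 to 113, which covers counting error only), and the fitted fold change is not given since it depends on how the near-zero counts are treated. With pioglitazone in both lines the ratio scaled in the same way was 11.04 (exact 95% interval 3.97 to 42.6), with 14, 11 and 13 counts in PPFP cells (adjusted p = 0.0044). Even at its highest, Itga8 was a gene of few reads.

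Itga5 encodes the α5 chain of the fibronectin receptor. Without pioglitazone it was at 45.9, 59.2 and 61.2 CPM in EV cells against 96.5, 95.6 and 92.1 CPM in PPFP cells. All PPFP libraries were higher, and the log2 fold change of 0.77 (SE 0.12) passed the test (adjusted p = 0.0014). With pioglitazone the gap was 0.50 (SE 0.09, adjusted p = 0.0035), from 52.3, 60.2 and 58.5 CPM in EV cells to 73.7, 84.2 and 81.8 CPM in PPFP cells. The groups did not overlap in either setting.

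Itga6 encodes the α6 chain, which forms laminin receptors with β1 or β4. EV cells without pioglitazone had 436, 535 and 520 CPM and PPFP cells 443, 363 and 373 CPM. The groups overlapped, because replicate 1 of EV cells lay below replicate 1 of PPFP cells. The log2 fold change was -0.34 (SE 0.12) with an adjusted p of 0.047, and the call was lost without replicate 2 (adjusted p = 0.12) or replicate 3 (0.090) of EV cells, or without replicate 2 (0.16) or replicate 3 (0.17) of PPFP cells. It was also lost with no filter on low counts (0.053) and with the replicate block (0.091). With pioglitazone the levels were 445, 544 and 526 CPM in EV cells against 435, 374 and 376 CPM in PPFP cells. Here the PPFP libraries were all lower, by a log2 fold change of -0.34 (SE 0.11, adjusted p = 0.031). That call was lost without replicate 2 (0.069) or 3 (0.057) of EV cells, without replicate 2 (0.11) or 3 (0.10) of PPFP cells, when the latter pair was counted as 1 library (0.11), and with the replicate block (0.089).

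Itgb1 encodes the β1 chain, the common partner of α1, α5, α6 and α8. It stood at 509, 591 and 538 CPM in EV cells against 579, 529 and 540 CPM in PPFP cells without pioglitazone. The ranges overlapped, and the approximate 95% interval of the log2 fold change ran from -0.16 to 0.18 around 0.0092 (adjusted p = 0.94). With pioglitazone the interval was -0.18 to 0.20 around 0.0056, from 529, 650 and 538 CPM in EV cells to 592, 557 and 554 CPM in PPFP cells. The difference had no settled sign, as it fell below 0 under several of the alternative settings, within a range of -0.13 to 0.096.

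Itgb4 encodes the β4 chain, whose long cytoplasmic tail binds the hemidesmosome. It was at 22.5, 24.5 and 14.6 CPM in EV cells without pioglitazone and at 28.9, 42.7 and 41.1 CPM in PPFP cells. All PPFP libraries were higher, with a log2 fold change of 0.87 (SE 0.22, adjusted p = 0.015). With pioglitazone this order was gone, with 22.5, 25.3 and 15.4 CPM in EV cells against 14.5, 17.9 and 19.8 CPM in PPFP cells. The groups overlapped, and the log2 fold change was -0.26 (SE 0.20, adjusted p = 0.30). Replicate 3 of EV cells was the low library of its group in both settings, and without it the PPFP cells with pioglitazone were lower by -0.46 on the log2 scale (adjusted p = 0.042).

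Itgb6 encodes the β6 chain, an epithelial subunit. It was at 19 to 25 counts per library in EV cells and 20, 44 and 23 counts in PPFP cells without pioglitazone, with an overlap and a log2 fold change of 0.60 (SE 0.35, adjusted p = 0.20). With pioglitazone it had 21, 20 and 33 counts in EV cells and 3, 25 and 19 counts in PPFP cells, which gave -0.45 (SE 0.60, adjusted p = 0.56). The 3 counts came from replicate 1 of PPFP cells, and without that library the log2 fold change was 0.027. At this depth no difference between the lines was detectable for Itgb6.

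With pioglitazone in both cell lines, 4 of 7 members passed the test, with Itga1, Itga5 and Itga8 up and Itga6 down. Of 10291 genes tested, 52.7% passed, 26.3% up and 26.4% down. The rises of Itga1 and Itga8 were again above 2-fold, a size reached by 9.3% of genes. The median log2 fold change of the members was 0.0056, beside 0.012 for all genes.

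**Figure D2:**
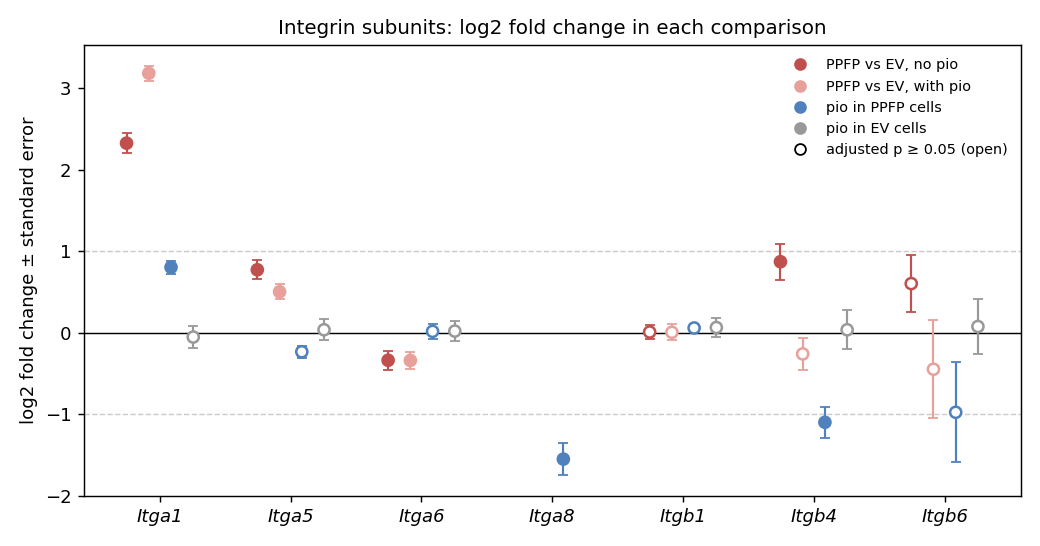
Log2 fold change (points) ± standard error (bars) of each integrin subunit, on the vertical axis, in 4 comparisons of 3 against 3 libraries; filled points passed an adjusted p of 0.05, open points did not, and dashed lines mark a 2-fold change. Itga8 is drawn for pioglitazone in PPFP cells alone, as it was at the floor in EV cells. Itga1 rose in both cell line comparisons and with pioglitazone in PPFP cells, and Itgb4 rose by 0.87 in PPFP cells without pioglitazone but fell by 1.10 when the drug was added.

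The next comparison was of PPFP cells with and without pioglitazone, which share their vehicle libraries with the first comparison. Pioglitazone raised Itga1 and lowered Itga8 and Itgb4. These 3 of 7 members passed the test, 1 up and 2 down, when 14.8% of 10064 genes passed, 7.63% up and 7.13% down. Both falls exceeded 2-fold, as did 1.31% of genes in that direction. The median over the members was -0.23, beside 0.012 for all genes. Same-numbered libraries of a cell line deviated together, so each pair was also set against itself in a blocked fit (replicate block), and there 5 of 7 members passed while 51.6% of all genes did.

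Itga1 went from 24.2, 27.7 and 27.4 CPM to 43.8, 47.3 and 46.1 CPM with pioglitazone, a log2 fold change of 0.80 (SE 0.08, adjusted p = 0.0018). Every treated library was above every untreated one. Itga1 was therefore higher in PPFP than in EV cells and higher again with the drug.

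Itga8 moved the other way, from 1.29, 1.42 and 1.37 CPM to 0.53, 0.41 and 0.43 CPM. The treated libraries were all lower, with a log2 fold change of -1.55 (SE 0.20), a 2.93-fold fall with an adjusted p of 0.0045. They remained above the EV libraries, of which the highest had 0.10 CPM.

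Itgb4 dropped from 28.9, 42.7 and 41.1 CPM to 14.5, 17.9 and 19.8 CPM. All treated libraries were lower, and replicate 1 was the lowest of both groups. The log2 fold change was -1.10 (SE 0.19, adjusted p = 0.012), a 2.14-fold fall. The call was lost without replicate 3 of the untreated libraries (log2 fold change -1.03, adjusted p = 0.058) or replicate 2 of the treated ones (-1.13, 0.054). In the fit with the replicate block it was -1.10 with an adjusted p of 2.1e-13.

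Itga5 fell from 92.1 to 96.5 CPM without the drug to 73.7 to 84.2 CPM with it, without overlap, but at a log2 fold change of -0.23 (SE 0.07) it missed the threshold (adjusted p = 0.082). It passed with the replicate block (-0.24, adjusted p = 0.00019) and in DESeq2 (adjusted p = 0.022). Itgb6 had a log2 fold change of -0.98 (SE 0.61, adjusted p = 0.36) and passed with the replicate block alone (-0.99, adjusted p = 0.0062), on a total of 3 to 44 counts per library. Itga6 and Itgb1 gave 0.017 (approximate 95% interval -0.17 to 0.20) and 0.059 (approximate 95% interval -0.042 to 0.16), with overlapping libraries.

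In EV cells no member responded to pioglitazone at the threshold. Of the 6 members tested, 0 were called, when 0% of 10146 genes were called. At an unadjusted p under 0.05 there were 16 genes in edgeR's quasi-likelihood test, 11 in edgeR's exact test and 7 in DESeq2, with 0 members among them in each, and both other tools also called 0 genes. With the replicate block 1 gene was called, Abca1, a cholesterol transporter and no member (log2 fold change 0.53, adjusted p = 0.0042). The log2 fold changes of the 6 members ran from -0.053 for Itga1 (approximate 95% interval -0.32 to 0.21) to 0.077 for Itgb6. Itgb4 was at 20.5 ± 5.20 CPM without and 21.1 ± 5.07 CPM with the drug (SD, n = 3), and its replicate 3 was low in both groups.

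Whether the drug response differed between the lines was tested with an interaction term over all 12 libraries. Itga1 was called, with a response 0.84 larger on the log2 scale in PPFP than in EV cells (SE 0.13, adjusted p = 0.0059). It was the 1 of 7 members to pass, when 2.64% of 10482 genes passed, 1.38% in that direction. For Itgb4 the difference was -1.15 (SE 0.33) and missed the threshold (adjusted p = 0.11), with an approximate 95% interval from -1.80 to -0.50. With a replicate block within each cell line, 3 of 7 members passed, as did 34.3% of all genes, and Itgb4 (-1.15, adjusted p = 2.0e-07) and Itga5 (-0.29, adjusted p = 0.0075) joined Itga1. Itgb4 also passed in DESeq2 (-1.14, adjusted p = 0.021). In 18 of 20 alternatives the Itgb4 difference missed the threshold as in the main fit, with an adjusted p of up to 0.25. No such difference is given for Itga8, whose EV libraries were at the floor.

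The members did not share 1 pattern. Across the 12 libraries, which fall into 2 cell lines, Pearson's r between log2 CPM values was 0.92 for Itga5 and Itga8 and 0.85 for Itga1 and Itga8, and it was -0.81 for Itga1 and Itga6. Itgb1 was not close to any of its α partners, with r of 0.020 for Itga1, 0.11 for Itga5, 0.42 for Itga6 and -0.071 for Itga8. Itga6 and Itgb4 had r of -0.42. Among 9638 genes of at least 1 CPM, those most like Itga8 were Copz1, Rfxap and Arhgap17 (r = 0.98 for each), and 65 genes had r above 0.95. Those most like Itgb4 were Sox4 (0.97), Vrk3 (0.96) and Gab1 (0.95), with 4 genes above 0.95. These coefficients describe the same 4 groups of libraries and carry no test.

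Of 16 other integrin subunits listed, 11 had a row and 6 were tested without pioglitazone. In PPFP cells 2 rose (Itga7 and Itgb2) and 3 fell (Itga11, Itgb5 and Itgb7), when 45.2% of all genes passed. This count of 5 became 3 without replicate 1 of EV cells or without replicate 2 or 3 of PPFP cells, and 1 with at least 10 counts required in every library. The largest rise was that of Itga7, the α7 chain of a laminin receptor typical of muscle. It had 8, 21 and 6 counts in EV cells and 1038, 1872 and 1631 counts in PPFP cells. This was a log2 fold change of 7.23 (SE 0.43, adjusted p = 1.8e-05), from 0.39 ± 0.27 to 59.3 ± 18.3 CPM (SD, n = 3). With pioglitazone the PPFP libraries reached 1984, 3885 and 4770 counts, all above the untreated ones. That response was 1.11 (SE 0.35, adjusted p = 0.090), and it passed with the replicate block (1.09, adjusted p = 2.0e-15), in DESeq2 (adjusted p = 0.0078), in edgeR's exact test (0.015), in a fit of all 12 libraries (0.043) and without replicate 1 of the treated cells (1.36, adjusted p = 0.028).

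**Figure D3:**
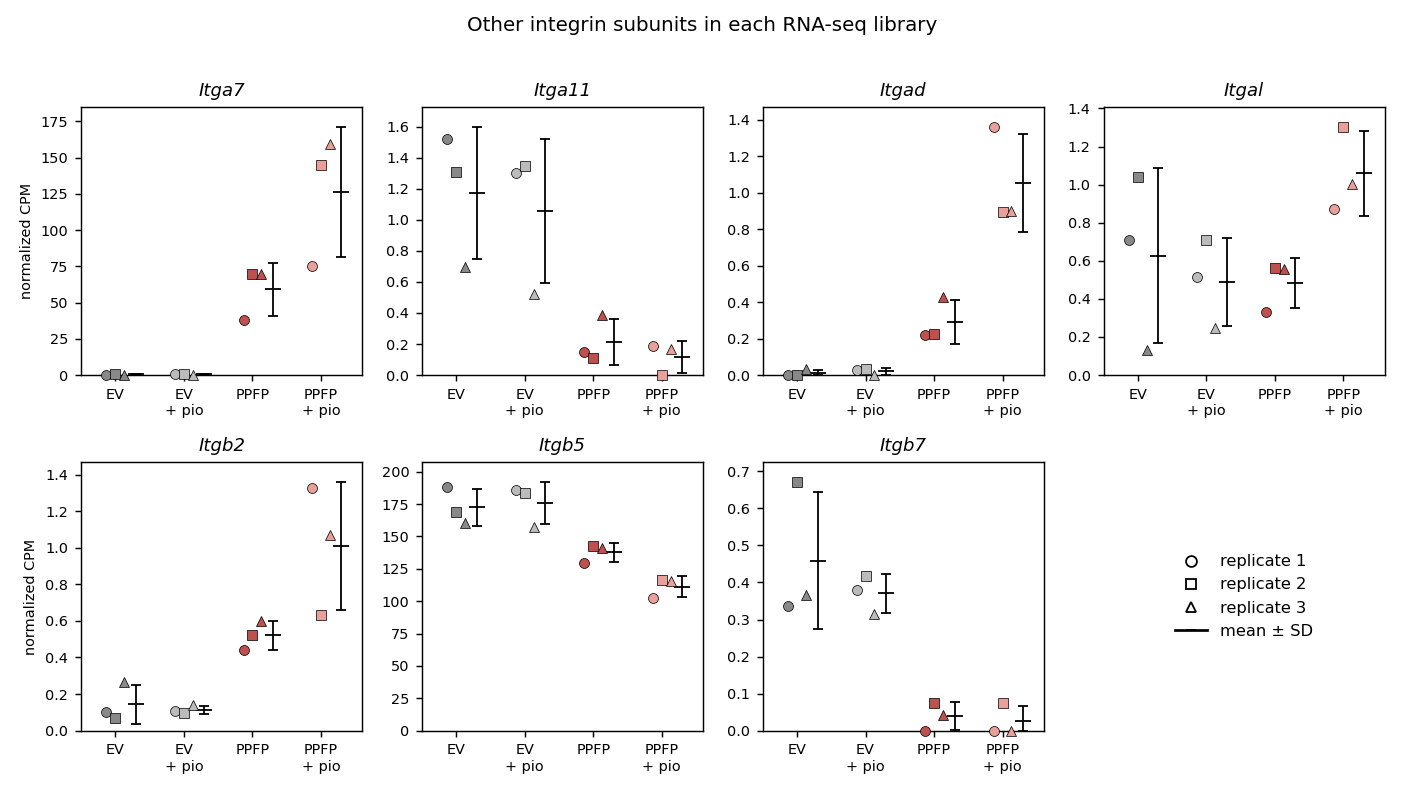
Normalized CPM (vertical axes, starting at 0) of the 7 other integrin subunits that were tested in at least 1 comparison, by group on the horizontal axes, with replicates as symbols and the mean ± SD of 3 libraries as black bars drawn no lower than 0. Itga7 stood at 59.3 CPM in PPFP cells without and 126 CPM with pioglitazone but under 1 CPM in EV cells, whereas Itgb5 and Itgb7 were lower in PPFP cells.

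Itgb7, a leukocyte subunit, had the largest fall, from 10, 20 and 11 counts in EV cells to 0, 2 and 1 counts in PPFP cells (ratio of EV to PPFP counts after the same scaling 11.8, exact 95% interval 3.77 to 59.7; adjusted p = 0.0065). Itgad, another leukocyte subunit, was at the floor in EV cells and rose with pioglitazone in PPFP cells from 6, 6 and 10 to 36, 24 and 27 counts (log2 fold change 1.87, SE 0.35, adjusted p = 0.016). Its call was lost without replicate 2 of the untreated cells (adjusted p = 0.076) and without replicate 2 (0.055) or replicate 3 (0.0503) of the treated cells, or with the latter pair counted as 1 (0.0505). Of 5 other subunits tested in that comparison, Itgad alone passed, and 5 did with the replicate block, beside 14.8% and 51.6% of all genes. The summed level of 7 leukocyte markers other than integrins was 1.14 to 1.57 CPM in untreated and 1.502 to 1.60 CPM in treated PPFP cells, and their part in the result was not tested.

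Of a list of integrin ligands, made of matrix proteins and of Tgfb1 and Tgfb3, 12 were tested. In PPFP versus EV cells without pioglitazone 9 passed, 5 up and 4 down, when 45.2% of all genes passed. Tgfb1 (down) and Tgfb3 (up) were among the 9. Fibronectin (Fn1), the ligand of α5β1, had the largest rise, from 247, 242 and 217 CPM to 2143, 2655 and 2574 CPM. The libraries were far apart (log2 fold change 3.38, SE 0.12, adjusted p = 3.5e-06). Osteopontin (Spp1), bound by αv and other integrins, had the largest fall, from 282, 219 and 224 counts to 7, 5 and 5 counts (-5.18, SE 0.24, adjusted p = 7.3e-06). The laminin chains moved both ways, with Lama1 (1.93, adjusted p = 0.0055) and Lamb3 (1.55, adjusted p = 0.0024) up and Lama5 (-1.38, adjusted p = 0.00056) and Lamb2 (-0.82, adjusted p = 0.022) down. Lamc1, at 342 CPM in EV and 327 CPM in PPFP cells, did not pass (-0.066, adjusted p = 0.61). These laminin chains were named after their values were seen. With pioglitazone in PPFP cells 3 of 12 ligands passed (14.8% of all genes), or 1 without replicate 2 or 3 of the untreated or replicate 2 of the treated cells. With the replicate block 9 passed (51.6% of all genes), Fn1 among them (0.20, adjusted p = 9.3e-05) after missing the threshold without it (0.20, adjusted p = 0.40).

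Of the hemidesmosome partners of α6β4, 3 were tested, and 2 rose in PPFP cells, when 22% of all genes rose. Plectin (Plec), which ties β4 to keratin filaments, went from 197, 209 and 177 CPM to 397, 451 and 420 CPM (log2 fold change 1.12, SE 0.09, adjusted p = 9.1e-05). The transmembrane collagen Col17a1 rose by 0.99 (SE 0.10, adjusted p = 0.00021), and Cd151, a tetraspanin, gave 0.16 (adjusted p = 0.12). With pioglitazone in PPFP cells, where Itgb4 fell, Col17a1 rose by 0.47 (SE 0.06, adjusted p = 0.0044) and Plec gave -0.17 (SE 0.06, adjusted p = 0.13). Col17a1 and Cd151 were named after their values were seen. With the replicate block all 3 passed, as did 51.6% of all genes, Plec at -0.17 (adjusted p = 0.00027).

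Of 27 integrin activators and adhesion adaptors tested, 8 rose and 5 fell in PPFP cells without pioglitazone, when 45.2% of all genes passed. Without replicate 1 of EV cells 6 of the list passed in place of 13. The kindlin Fermt1 had the largest rise (0.98, SE 0.33, adjusted p = 0.045) on 13 to 35 counts per library. That call was lost in 10 of 14 alternatives, among them without replicate 1, 2 or 3 of EV cells (adjusted p = 0.085, 0.12 and 0.081) and replicate 2 or 3 of PPFP cells (0.16 and 0.11). The kinase Src had the largest fall, from 98.5, 91.2 and 87.5 CPM to 60.3, 58.5 and 55.6 CPM (-0.67, SE 0.08, adjusted p = 0.00051). With pioglitazone in PPFP cells 8 of 27 passed, 3 up and 5 down, beside 14.8% of all genes, and 4 passed without replicate 2 or 3 of either group, or with replicates 2 and 3 of the treated cells counted as 1. With the replicate block 16 passed, beside 51.6% of all genes. The paxillin relative Tgfb1i1 had the 1 fall above 2-fold, from 31, 41 and 23 to 16, 14 and 19 counts (-1.04, SE 0.25, adjusted p = 0.037). It missed the threshold without replicate 2 (adjusted p = 0.10) or 3 (0.068) of the untreated cells, without replicate 1 (0.079), 2 (0.14) or 3 (0.105) of the treated cells, and with replicates 2 and 3 of the latter counted as 1 (0.11).

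Of 9 membrane partners of integrins tested, 6 rose and 2 fell in PPFP cells without pioglitazone, when 45.2% of all genes passed. Caveolin-1 (Cav1), which organizes membrane domains beside integrins, had 0 counts in all 3 EV libraries and 30, 33 and 33 counts in PPFP cells. Against a floor of 3 counts per library its level was at least 12.4-fold higher in PPFP than in EV cells (adjusted p = 0.00037). With pioglitazone it fell to 19, 12 and 11 counts (-1.28, SE 0.29, adjusted p = 0.030). That fall missed the threshold without replicate 2 (adjusted p = 0.095) or 3 (0.12) of the untreated cells, without replicate 2 (0.13) or 3 (0.11) of the treated cells, and with that pair counted as 1 (0.10). The tetraspanin Tspan4 had the largest fall between the lines, from 146, 146 and 126 CPM to 75.8, 64.7 and 70.8 CPM (-0.98, SE 0.10, adjusted p = 0.00020). With the drug 2 of 9 partners passed in PPFP cells, both down (14.8% of all genes), and 1 without replicate 2 or 3 of either group or with that treated pair counted as 1. With the replicate block 7 passed (51.6% of all genes).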

How the data were processed

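RNA was sequenced from EV and PPFP cells with vehicle or pioglitazone in 3 libraries per group (Illumina TruSeq RNA). The authors aligned reads to rat build rn4 with TopHat2 2.0.11 and deposited whole-number counts per gene from HTSeq 0.6.1p1 in intersection-strict mode, which leaves out reads that overlap a gene only in part. The annotation and strand setting are not given in the sources used here, so reads of overlapping genes cannot be separated. The ChIP and input peak lists were not used, since no annotation of their build was at hand.

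Counts were tested in R 4.3.3 with edgeR 4.0.16 (filterByExpr, TMM, quasi-likelihood test, Benjamini-Hochberg adjustment over all genes tested), on the 6 libraries of the groups compared or all 12 for the interaction. A called gene had an adjusted p under 0.05. The study used edgeR with tagwise dispersion for each pair of groups. Alternatives here were the exact test of edgeR, DESeq2 1.42.0, other scalings and filters, a replicate block, and leaving out each library. CPM used TMM factors over 12 libraries (0.925 to 1.05). Standard errors were the log2 fold change over the root of F. Intervals of a log2 fold change took a normal multiple of this error. They are approximate, and narrower than the few degrees of freedom of the test would give. A group was at the floor where every library had at most 3 counts. Depth was 23724703 to 35240176 counts per library, and count intervals are exact binomial at 95%, for counting error only. The quasi-likelihood fit was tried on simulated counts for PPFP versus EV cells without pioglitazone, pioglitazone in PPFP cells and the interaction. The other steps were not tried on simulated data. Promoters and figures were handled in Python with pandas 2.3.3 and matplotlib 3.10.9.

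Replicate numbers come from the labels. Deviations from group means correlated between same-numbered libraries with and without pioglitazone in PPFP cells (r = 0.74, 0.46 and 0.43) and EV cells (0.53, 0.73 and 0.77), and the study ran 3 independent experiments, so a replicate block was read as a pairing within a cell line. In PPFP cells, libraries numbered 2 and 3 also deviated together across numbers (r = 0.54 and 0.35), so the number does not tell these 2 apart. The members and gene lists were chosen with earlier results of these data known. All members were named, then the largest rise and fall of each list in PPFP versus EV cells without pioglitazone among called genes, genes called above 2-fold with pioglitazone in PPFP cells, and for the α and the β subunit with the largest called change the 3 genes with the highest r. RNA levels of Itga2, Itga3 and Itgav were not analysed here, though their promoters were searched.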

Additional observations from a re-analysis of the deposited data

Results flagged for a closer look

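The response of Itga1 to pioglitazone differed between the cell lines. The interaction was 0.84 on the log2 scale (SE 0.13, adjusted p = 0.0059 in edgeR's quasi-likelihood test), PPFP minus EV cells. All 3 treated libraries of PPFP cells were above the untreated ones, while those of EV cells overlapped. Its cause was not tested. The call was kept in 20 of 20 alternatives, leaving out each library in turn among them. Groups of 3 libraries were too small to tell an outlying sample from the spread of its group.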

How the results depend on the processing

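The counts of integrin subunits called stayed within 1.5 times those of the report under the alternatives run, except that pioglitazone in PPFP cells gave 5 with the replicate block in place of 3, and the interaction gave 2 in DESeq2 and 3 with the replicate block within each cell line in place of 1. The block leaves few residual degrees of freedom, and between the cell lines same-numbered libraries did not deviate together (r = -0.25, 0.32 and -0.32 without and -0.25, 0.24 and -0.38 with pioglitazone), and although the samples of an experiment shared sequencing lanes, no source used here ties the numbers to experiments. There the block gave 4 calls in place of 5 and 3 in place of 4, with Itga6 no longer called. Members called above 2-fold went from 2 to 1 for the drug in PPFP cells without replicate 3 of the untreated or replicate 1 or 2 of the treated cells, from 2 to 1 in both cell line comparisons with at least 10 counts in every library, and from 0 to 1 for the interaction in DESeq2 and with the block within each line. Of the gene lists under pioglitazone in PPFP cells, counts ran from 4 to 16 (adaptors, 8 in the report), 1 to 9 (ligands, 3), 1 to 3 (hemidesmosome partners, 1), 1 to 7 (membrane partners, 2) and 0 to 5 (other subunits, 1). Signs changed for values near 0. Itgb1 in PPFP versus EV cells was -0.073 without pioglitazone when scaled by library size alone, and with pioglitazone it was -0.0043 in DESeq2, -0.0043 with RLE size factors, -0.13 by library size alone, -0.023 with no filter, -0.021 with at least 10 counts in every library, -0.010 in one fit of all 12 libraries and -0.00093 with replicates 2 and 3 of treated PPFP cells counted as 1, a setting chosen after seeing the data. Scaling by library size alone moved the median of all genes to -0.12 in that comparison. Pioglitazone in PPFP cells gave -0.030 for Itga6 by library size alone. With each library left out in turn, Itgb1 ran from -0.042 to 0.068 without and -0.066 to 0.096 with pioglitazone, Itgb6 with pioglitazone from -1.03 to 0.027, Itga6 under the drug in PPFP cells from -0.062 to 0.094, and under the drug in EV cells Itga1 from -0.13 to 0.033 and Itgb4 from -0.15 to 0.21. The causes were not tested. Itga1 kept its direction and its call in both cell line comparisons, the drug response of PPFP cells and the interaction under the alternatives run. Depth limits Itga8 and Itgb6, which had at most 38 and 44 counts in a library.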
